A study of Homo sapiens with 3 samples.

Results

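The IGF2 locus on chromosome 11 was followed through 3 lists of RNA sites bound by CSTF2tau. Its members are 3 Ensembl gene IDs, IGF2 (ENSG00000167244), INS-IGF2 (ENSG00000129965) and H19 (ENSG00000130600), of 13356 gene IDs listed in all. The symbols come with the choice of members, since the peak lists give gene IDs alone. A peak belonged to the locus when the gene ID in its name was one of these. Replicates 1, 2 and 3 held 187, 112 and 66 such peaks, of 105203, 18346 and 78761 listed. All 365 lay on the minus strand of chromosome 11 (hg19), between 2.0 and 2.2 Mb. They carried 2 of the 3 IDs, and H19 had no listed peak in any replicate. The locus was chosen by the reads of these same lists, in which single sites of it had high shares, so its shares are given as a description, without a test.

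The samples are 1 group of 3 biological replicates of BE(2)-C, an established cell line from a human neuroblastoma, labelled as wild type and grown without a stated treatment. Protein was crosslinked to RNA in living cells with ultraviolet light, the RNA was partly digested, and fragments bound to CSTF2tau were recovered with an anti-CSTF2tau antibody and sequenced (sCLIP). Neither input RNA nor a control antibody was analysed here. The amount of an RNA and its binding can therefore not be told apart, and every comparison is between replicates or between places within a library. The cell type could not be checked against marker genes, because none of the listed gene IDs could be matched to a symbol in the reference table (0 of 13356).

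IGF2 encodes insulin-like growth factor 2, a growth-promoting peptide hormone that is active in fetal life and is expressed by many neuroblastomas. It is imprinted together with its neighbour H19, a long non-coding RNA: the paternal copy of IGF2 and the maternal copy of H19 are normally the active ones. IGF2 transcripts start at several promoters and share their last exons, the final one ending in a long 3' UTR. INS-IGF2 is a read-through transcript that begins at the insulin gene and shares exons with IGF2. CSTF2tau is a paralogue of CSTF2, the part of the cleavage stimulation factor that touches RNA and that prefers GU-rich stretches downstream of poly(A) sites during 3' end formation.

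The lists held 736059, 108434 and 387784 reads in replicates 1, 2 and 3, counting the last whole number in each peak name as its reads. These totals cover listed peaks alone and are not the sequencing depth. Replicate 3 had 63.2% of its nuclear reads on the minus strand, the strand of the IGF2 locus, against 48.8% in replicate 1 and 50.6% in replicate 2. The part of this imbalance in the values below was not tested.

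IGF2 was among the gene IDs with the most reads in each replicate. It had 1756 reads in 169 peaks in replicate 1, 725 reads in 95 peaks in replicate 2 and 642 reads in 50 peaks in replicate 3. These were 0.239%, 0.669% and 0.166% of all listed reads, with exact 95% intervals of 0.228 to 0.24998%, 0.621 to 0.719% and 0.153 to 0.179%. Replicate 2 was the highest and its interval did not meet the others. By share the ID ranked 26, 8 and 39 among the 11152, 5173 and 10788 IDs of replicates 1, 2 and 3, and its mean of 0.358% ± 0.272 (SD, n = 3) ranked 11 of 13356. The share differed 4.04-fold between replicates 2 and 3. Over the 4414 gene IDs listed in all 3 replicates the median of this ratio was 3.21, and 41.7% of them were highest in replicate 2.

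INS-IGF2 had fewer reads, 306 in replicate 1, 216 in replicate 2 and 172 in replicate 3. The shares were 0.0416%, 0.199% and 0.0444%, a mean of 0.0950% ± 0.0902 (SD, n = 3). Much of this was the same RNA as listed under IGF2. With each cluster of overlapping peaks counted once, under the ID with more reads, the locus held 1913, 823 and 704 reads. The shares were then 0.260% (0.248 to 0.272%), 0.759% (0.708 to 0.812%) and 0.182% (0.168 to 0.195%) and averaged 0.400% ± 0.313 (SD, n = 3). Leaving out replicate 2 gave 0.221%. These shares are of list totals that count every line. With the totals also counted once per cluster, the mean was 0.429% ± 0.340 (SD, n = 3). The intervals cover counting error only, since listed reads need not be independent molecules.

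H19, the non-coding RNA of the pair, had 0 peaks and 0 reads in the 3 lists. Each list holds only peaks of at least 3 reads, so fewer reads at H19 would not have been listed. Nothing follows from this about the level of the RNA or its binding.

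Most of the reads lay in the 4 kb nearest the 3' end of the listed region. Positions are given as distance upstream of the 3'-most listed base, chr11:2150401 on the minus strand, because no annotation of exons in hg19 was used here. The first 4 kb, chr11:2150401-2154400, held 85.9% of the locus reads in replicate 1, 82.6% in replicate 2 and 87.1% in replicate 3, a mean of 85.2% ± 2.31 (SD, n = 3). The values lay within 5 percentage points of each other. Within those 4 kb the replicates differed more. The first kb held 8.89%, 27.6% and 18.0% of the locus reads in replicates 1, 2 and 3, and the next kb held 16.3%, 19.2% and 31.5%. The window from 2 to 3 kb, chr11:2152401-2153400, held 48.2% of the locus reads in replicate 1 (exact 95% interval 46.0 to 50.5%) against 19.6% in replicate 2 and 19.9% in replicate 3. The window from 3 to 4 kb was more even, at 12.5%, 16.3% and 17.6%. Replicate 1 was thus heaviest between 2 and 3 kb, replicate 2 in the first kb and replicate 3 between 1 and 2 kb.

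**Figure D1:**
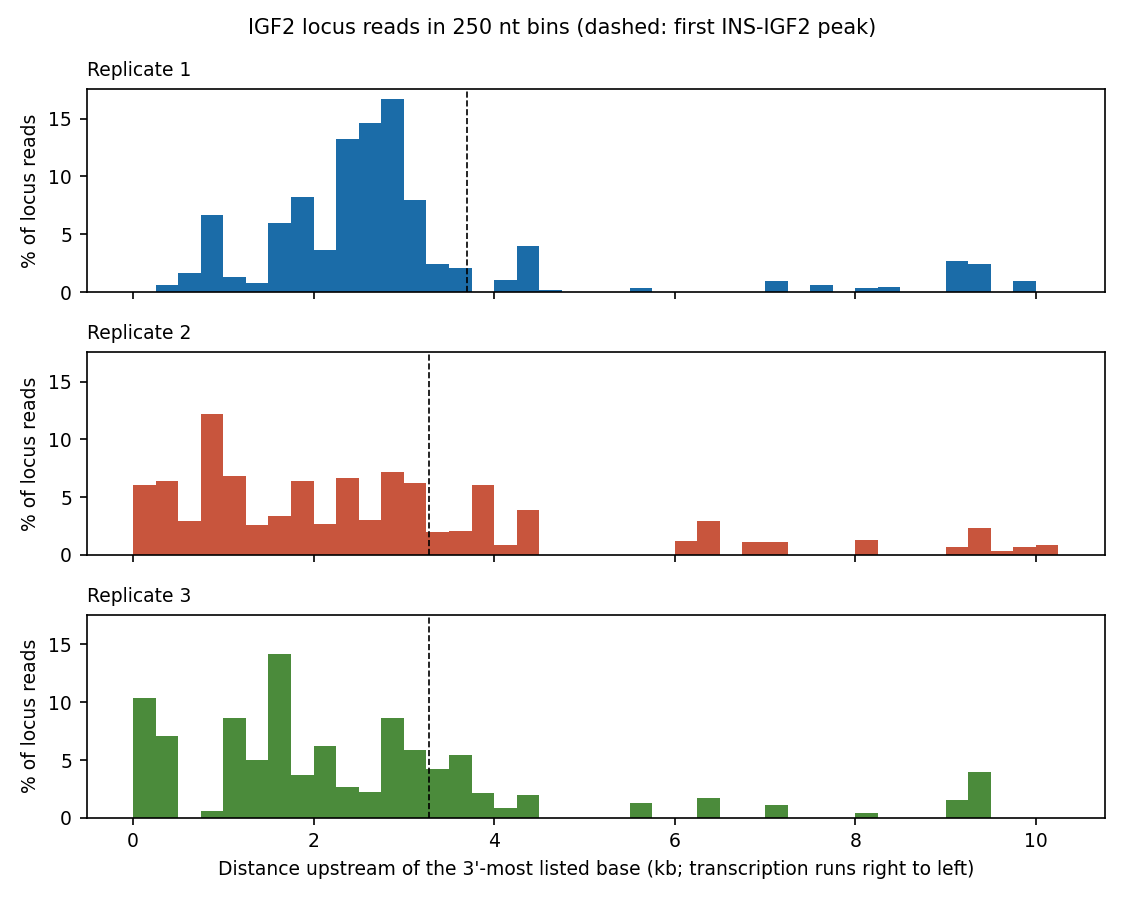
Percentage of the IGF2 locus reads (vertical axis) in 250 nt bins against distance upstream of the 3'-most listed base in kb (horizontal axis), 1 panel per replicate. The first 4 kb hold 85.9%, 82.6% and 87.1% of the reads, and the dashed line marks the first INS-IGF2 peak, at 3.71, 3.28 and 3.28 kb.

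Across the 41 bins of 250 nt, Spearman's rho of the reads between replicates 1 and 2 was 0.65; replicate 3 had 0.64 with replicate 1 and 0.79 with replicate 2. Across 101 bins of 100 nt these values were 0.62, 0.57 and 0.64. Bins of 1 locus share the RNA, its abundance and its base composition, so these values describe the profiles and carry no p.

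The outermost stretch at the 3' end also differed between replicates. In the first 400 nt, a limit chosen after the values were seen, replicate 2 had 103 reads in 6 peaks and replicate 3 had 123 reads in 8 peaks. Replicate 1 had 11 reads in 2 peaks, of 5 and 6 reads. As a share of the locus reads, replicates 1, 2 and 3 had 0.575%, 12.5% and 17.5% here, with exact 95% intervals of 0.287 to 1.03%, 10.3 to 15.0% and 14.7 to 20.5%. Replicates 2 and 3 overlapped in their intervals and replicate 1 stood apart. The stretch holds 3 neighbouring loci, a locus being a run of peaks that overlap on the same strand by at least 1 nt over the 3 lists. At chr11:2150401-2150504 the reads were 0, 40 and 34 in replicates 1, 2 and 3. At chr11:2150594-2150738 they were 11, 53 and 57. The strongest peaks there in replicates 2 and 3 had almost the same stretch of highest signal, the sub-interval of at most 4 nt that the lists give inside each peak: it began at 2150657 in replicate 2 and 2150653 in replicate 3. In replicate 1 it began at 2150735. The peak of replicate 2, chr11:2150599-2150708, had 50 reads and was the highest under IGF2 in that replicate.

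Another gene ID, ENSG00000240801, was listed on the same strand at this place. It had 2 peaks with 67 reads in replicate 2, 7 peaks with 97 reads in replicate 3 and 0 peaks in replicate 1. All 2 and all 7 overlapped an IGF2 peak, so these reads stand under both IDs. Its absence from replicate 1 goes with the low IGF2 reads there. None of its reads were added to the locus.

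The locus overlapped between replicates by at least 1 nt more often than the lists as a whole. It was also densely covered, as given below, and the part of this in the overlap was not tested. Its peaks formed 101 loci, of which 20 had reads in all 3 replicates, 23 in exactly 2 and 58 in 1. That is 19.8% in all 3, against 0.889% of all 172167 loci of the series, where 91.4% were found in a single replicate. The 20 loci held 72.7%, 63.2% and 69.2% of the locus reads in replicates 1, 2 and 3, against 4.06%, 13.9% and 4.48% for such loci over the whole lists. The totals of the whole lists count every line, also reads under several gene IDs. The latter percentages are therefore lower than with totals counted once. They were 28 to 394 nt long, with a median of 111 nt. The 58 loci of a single replicate were short, with a median of 7 nt and at most 19 reads; 36 were from replicate 1, 19 from replicate 2 and 3 from replicate 3. Peaks that abut without overlapping count as separate loci, as from chr11:2151146 to 2151483, where loci lie end to end. The 101 and the 58 therefore depend on how finely the lists split the region. With only peaks of at least 20 nt, an alternative added after the values were seen, 8 of 57 loci were in all 3 replicates (14.0%), against 0.859% of all loci.

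The order of single loci by mean share of all listed reads depended on replicate 2. With all replicates the highest was chr11:2151224-2151421, 198 nt long, at 0.0328% ± 0.0418 (SD, n = 3), but without replicate 2 its mean was 0.00914%. By mean percentage of the locus reads, where replicates weigh alike, it had 5.93% and stood below chr11:2153077-2153288 with 9.38% and chr11:2151910-2152005 with 7.87%. It had 127 reads in replicate 1 and 87 in replicate 2, but 4 in replicate 3. As a share of the locus reads this was 6.64%, 10.6% and 0.568%, an 18.6-fold spread, the widest among the 20 loci. The locus chr11:2153077-2153288 was 212 nt long and had 333, 37 and 44 reads, a mean share of 0.0302% ± 0.0173 (SD, n = 3), or 0.0283% without replicate 2. This was 17.4% of the locus reads in replicate 1, the largest share of a single locus in that replicate, and 4.50% and 6.25% in replicates 2 and 3.

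The longest locus, chr11:2153978-2154371, spanned 394 nt and was listed under both IGF2 and INS-IGF2. It had 39, 67 and 53 reads, or 2.04%, 8.14% and 7.53% of the locus reads, with replicate 1 the lowest. Its mean share was 0.0269% ± 0.0305 (SD, n = 3). With reads taken cluster by cluster within each list, the mean was 0.0270%, or 0.00955% without replicate 2. At chr11:2151910-2152005 the reads were 115, 28 and 100. This site held 14.2% of the locus reads of replicate 3 and its highest peak, chr11:2151952-2152005, with 94 reads and an authors' p-value of 6.8e-147. In replicate 1 the same site had its highest peak with 56 reads at chr11:2151977-2151993. In replicate 2 it held 3.40% of the locus reads, so all 3 replicates had it and its weight differed 4.18-fold.

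Other loci were more even. At chr11:2152179-2152270 the reads were 97, 40 and 26, or 5.07%, 4.86% and 3.69% of the locus reads, and the stretches of highest signal began within 8 nt of each other. At chr11:2153563-2153667 the reads were 47, 27 and 17, or 2.46%, 3.28% and 2.41%, and these stretches began within 11 nt. At chr11:2152674-2152781 the reads were 148, 41 and 19, or 7.74%, 4.98% and 2.70%, and the stretches began up to 44 nt apart. At chr11:2154746-2154951, listed under both IDs, the reads were 79, 32 and 14, or 4.13%, 3.89% and 1.99%, and the stretches began up to 126 nt apart. This site carried the highest single peak of replicate 1, with 76 reads under INS-IGF2 and 71 under IGF2. Among the 10 loci of largest mean share, replicate 1 lacked chr11:2150401-2150504, given above, and chr11:2151575-2151668, which had 0, 28 and 51 reads.

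Among all 20, the ratio of the highest to the lowest share of the locus reads ran from 1.14 to 18.6, with a median of 3.15, and was at most 2 at 7 loci. The share was highest in replicate 1 at 8 loci, in replicate 2 at 3 and in replicate 3 at 9. The stretches of highest signal in the strongest peak of each replicate began 5 to 126 nt apart, with a median of 41 nt, and within 10 nt at 2 loci.

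**Figure D2:**
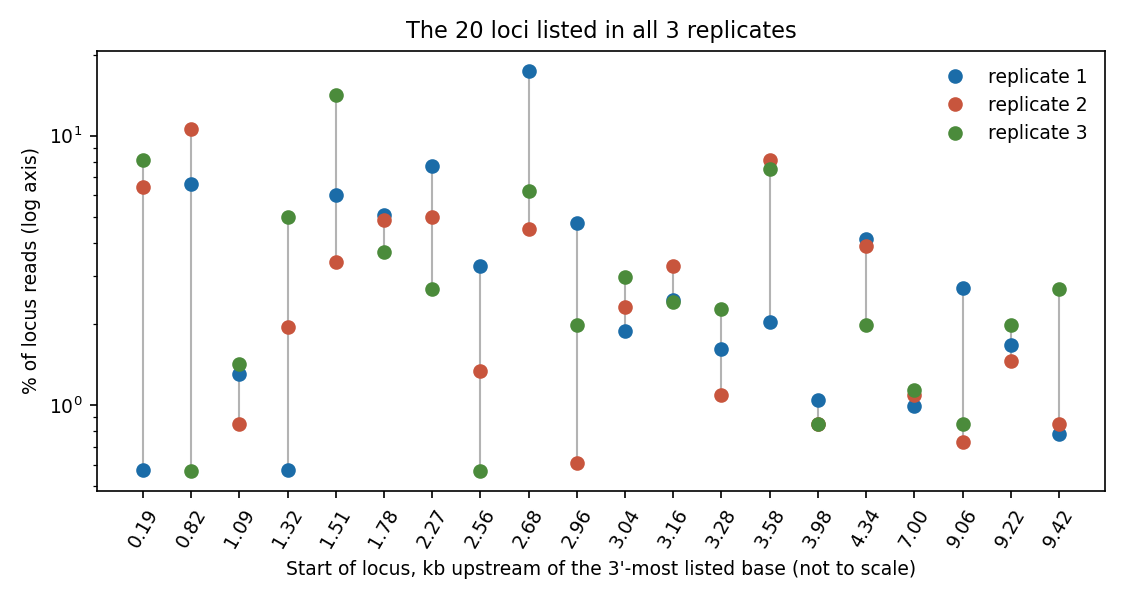
Percentage of the IGF2 locus reads (vertical log axis) at each of the 20 loci listed in all 3 replicates, in order of distance upstream of the 3'-most listed base (horizontal axis, not to scale); points are replicates and grey lines join the lowest and highest. The spread runs from 1.14-fold to 18.6-fold.

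Upstream of the dense part the signal was sparse. The largest stretch without any listed peak was 1117 nt, chr11:2154952-2156068. Beyond 5 kb lay 14 loci of 47 to 201 nt, of which 4 were in all 3 replicates, 5 in exactly 2 and 5 in 1. This part held 8.89% of the locus reads in replicate 1, 12.6% in replicate 2 and 10.1% in replicate 3, a mean of 10.5% ± 1.92 (SD, n = 3). Of the 4 shared loci, chr11:2157396-2157521 was the most even of all 20, with 19, 9 and 8 reads, or 0.993%, 1.09% and 1.14% of the locus reads. It was listed under INS-IGF2 alone.

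The other 3 lay side by side near the upstream end. At chr11:2159460-2159599 the reads were 52, 6 and 6, with replicate 1 the highest. At chr11:2159623-2159800 they were 32, 12 and 14. At chr11:2159819-2159932 they were 15, 7 and 19. The window from 9 to 10 kb held 6.17%, 4.13% and 5.54% of the locus reads, more than any other window of 1 kb beyond 5 kb in replicates 1 and 3; in replicate 2 the window from 6 to 7 kb held 5.22%. That window had 34 and 12 reads of replicates 2 and 3 at chr11:2156596-2156796, where replicate 1 had 0.

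The 2 gene IDs listed the same region in different ways. Peaks under INS-IGF2 began 3.71, 3.28 and 3.28 kb upstream of the 3'-most base in replicates 1, 2 and 3, and none lay nearer the 3' end. In that nearer part, IGF2 had 162, 85 and 39 peaks with 1607, 604 and 530 reads. Of the 101 loci, 82 were listed under IGF2 alone, 8 under INS-IGF2 alone and 11 under both. Where clusters held peaks of both IDs, 6 in replicate 1, 9 in replicate 2 and 11 in replicate 3, INS-IGF2 had the higher number of reads in 5, 7 and 10. Summed over these clusters, IGF2 had 149, 121 and 112 reads and INS-IGF2 had 185, 157 and 145. The INS-IGF2 peaks were wider, covering 327, 946 and 1091 nt in replicates 1, 2 and 3, where those of IGF2 covered 193, 553 and 722 nt. A peak with an identical stretch of highest signal under both IDs occurred in 2, 8 and 9 of the clusters. The 2 IDs therefore do not give independent values at these sites.

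Peaks under IGF2 were narrow in replicates 1 and 2 over the part nearest the 3' end. Over all IGF2 peaks the median width was 6 nt in replicate 1, 9 nt in replicate 2 and 46 nt in replicate 3, against 79, 72 and 69 nt over all peaks of each list. Under 20 nt were 162 of the 169 IGF2 peaks of replicate 1, 69 of the 95 of replicate 2 and 3 of the 50 of replicate 3. Many IGF2 peaks, counted at any width, abutted, one ending where the next began: 105 neighbouring pairs in replicate 1, 34 in replicate 2 and 28 in replicate 3. Of 1204 gene IDs with at least 20 peaks in replicate 1, 6 had a median width at or below 6 nt, IGF2 included. In replicate 2 IGF2 had the lowest median of 106 such IDs, and in replicate 3 it was among the 4 lowest of 816. The width went with position: IGF2 peaks nearer the 3' end than the first INS-IGF2 peak had medians of 6, 8 and 41 nt, and the 7, 10 and 11 IGF2 peaks from there on had medians of 12, 62.5 and 69 nt. INS-IGF2, listed only in that upstream part, had medians of 68, 94 and 90 nt. In replicate 1 the IGF2 peaks of that part thus stayed narrow, at 12 nt, and the width there went with the gene ID as well.

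The running number in the IGF2 peak names reached 589 in replicate 1, 355 in replicate 2 and 63 in replicate 3, of which 71.3%, 73.2% and 20.6% were not listed. How many stretches a list had numbered along IGF2 thus differed between replicates, in the same order as the narrowness of its peaks. No source used here gives the peak caller or its settings, and their part in the differences between replicates was not tested.

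**Figure D3:**
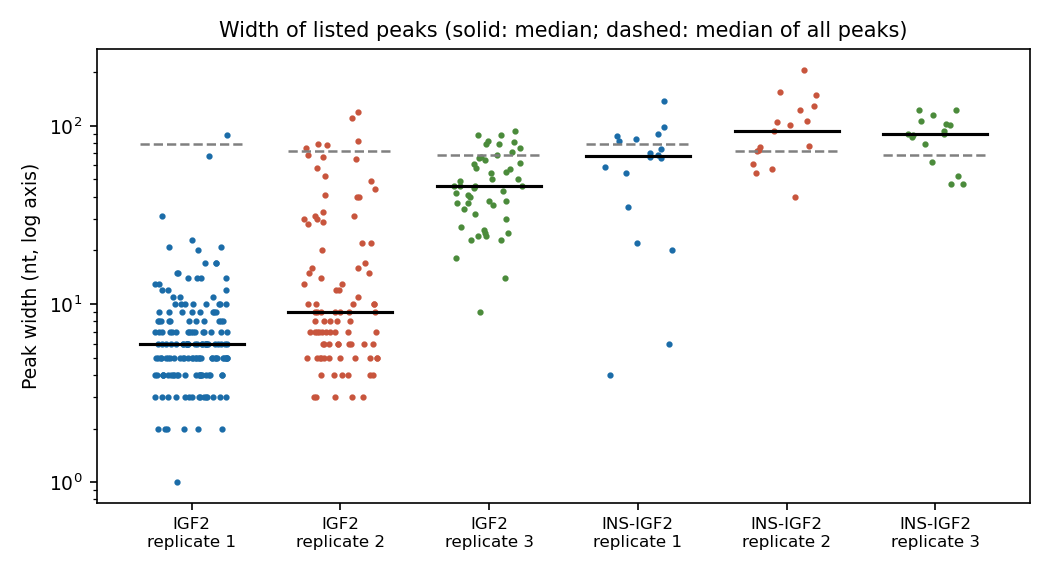
Width in nt (vertical log axis) of each listed peak under IGF2 and INS-IGF2 by replicate; solid lines are medians and dashed lines the median over all peaks of that list. The IGF2 medians are 6, 9 and 46 nt and the INS-IGF2 medians 68, 94 and 90 nt, with most IGF2 peaks lying where INS-IGF2 has none.

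Agreement between replicates was also counted by clusters, the runs of overlapping peaks within 1 list. Of the clusters at the IGF2 locus, 144 of 180 in replicate 1 shared at least 1 nt with a cluster of another list (80.0%, exact 95% interval 73.4 to 85.6%). It was 82 of 101 in replicate 2 (81.2%, 72.2 to 88.3%) and 52 of 55 in replicate 3 (94.5%, 84.9 to 98.9%). These intervals treat clusters as independent, which they need not be. Peaks that abut count as separate clusters, and several of them can meet the same peak of another list. Over all clusters of the series the shares were 15.3%, 35.4% and 16.9%. The mean over replicates was 85.2% ± 8.08 (SD, n = 3) at the locus and 22.4% ± 11.1 elsewhere. Among gene IDs with at least 20 clusters, IGF2 ranked 1, 3 and 2 among 1204, 105 and 816 IDs.

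The locus was high in every class of reads per cluster. Among clusters of 3 to 4 reads, 70.0% overlapped in replicate 1, 78.0% in replicate 2 and 71.4% in replicate 3, against 8.88%, 25.7% and 10.3% elsewhere. Every cluster of at least 20 reads at the locus overlapped another replicate, 20 in replicate 1, 8 in replicate 2 and 7 in replicate 3, against 40.3%, 72.6% and 81.4% elsewhere. The locus was also densely covered. In the first 4 kb, peaks of replicates 1, 2 and 3 covered 29.7%, 43.5% and 54.1% of the bases, and either of the other 2 replicates covered 68.6%, 65.5% and 61.4%. Of the 3063 bases covered by any replicate there, 336 were covered by all 3. Beyond 4 kb, where coverage was 17.4%, 20.5% and 15.3%, this was 387 of 1799 bases. The part of dense coverage in the overlap was not tested. With only peaks of at least 20 nt the shares of overlapping clusters at the locus were 81.0%, 76.5% and 55.8%. This left 23, 43 and 63 of its 187, 112 and 66 peaks in replicates 1, 2 and 3. The same share over all clusters was not computed.

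IGF2 had 185, 76.2 and 67.5 listed reads per kb of its listed span in replicates 1, 2 and 3, ranks 4, 2 and 4 among IDs with at least 20 peaks, whose medians were 2.01, 1.26 and 0.743.

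**Figure D4:**
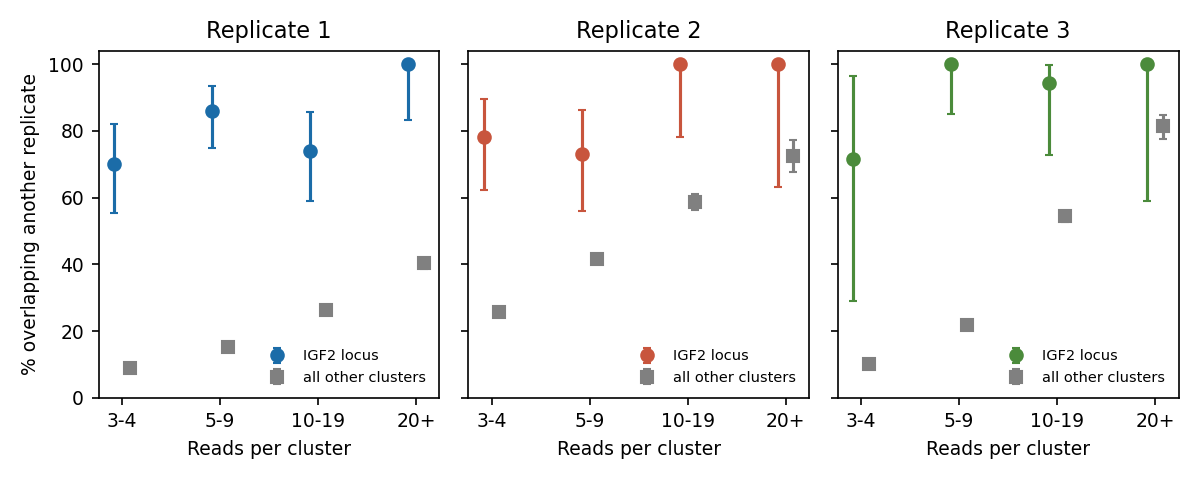
Percentage of clusters that overlap a cluster of another replicate (vertical axis) by reads per cluster (horizontal axis), 1 panel per replicate. Coloured points are the IGF2 locus, grey squares all other clusters, and bars exact 95% intervals that treat clusters as independent. Among clusters of 3 to 4 reads the locus reaches 70.0%, 78.0% and 71.4%, against 8.88%, 25.7% and 10.3% elsewhere.

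Because the cleavage stimulation factor acts at mRNA 3' ends, reads in the last 10% of the listed span of each gene ID (3' end) were compared with those in the first 10% (5' end). IGF2 had more reads at the 3' end in each replicate, with 131, 195 and 123 reads there and 33, 0 and 23 at the 5' end in replicates 1, 2 and 3. Summed, 449 reads stood against 56. The log2 ratio was 2.99, and the 3' end was higher in 3 of 3 replicates. INS-IGF2 had 37, 73 and 81 reads at its 3' end and 34, 23 and 19 at its 5' end. Its log2 ratio was 1.32, and the 3' end was higher in 3 of 3 replicates, with nearly equal ends in replicate 1. Over the 3 replicates, an exact two-sided sign-flip test gave p = 0.25 for each ID, the smallest p that 3 replicates allow. With 3 of 3 replicates in 1 direction this p is fixed, so it decides nothing. Under a rule applied to all 6382 gene IDs tested (exact binomial test on summed reads, with adjustment, and 1 direction in all replicates), both IDs were called for the 3' end. So were 18.1% of the IDs tested, and 14.1% were called for the opposite end. These calls treat listed reads as independent molecules and cover counting error only, and the locus was chosen on the same reads. No binomial p is therefore given for it, and nothing is read from its calls. The IGF2 ratio lay at the 94.0 percentile of all tested IDs, whose median was 0.18, and that of INS-IGF2 at the 73.3 percentile.

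The IGF2 value rests on how the region was listed. Its 5' window lies where INS-IGF2 is listed too. Part of its 3' window lies where ENSG00000240801 is listed in replicates 2 and 3. Without peaks listed under several gene IDs, the IGF2 span shrank from 9.51 to 3.62 kb. It then ran from chr11:2150481 to 2154099, so both windows were shorter and the 5' window had moved into the first 4 kb. The ratio without these peaks therefore compares other stretches than the main one. The 3' end then had 11, 26 and 6 reads and the 5' end 42, 0 and 0. The log2 ratio was 0.034, and IGF2 was no longer called. With only peaks of at least 20 nt the 3' end had 0, 151 and 112 reads and the 5' end 33, 0 and 23. The log2 ratio was then 2.22, and IGF2 was not called because replicate 1 pointed the other way.

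**Figure D5:**
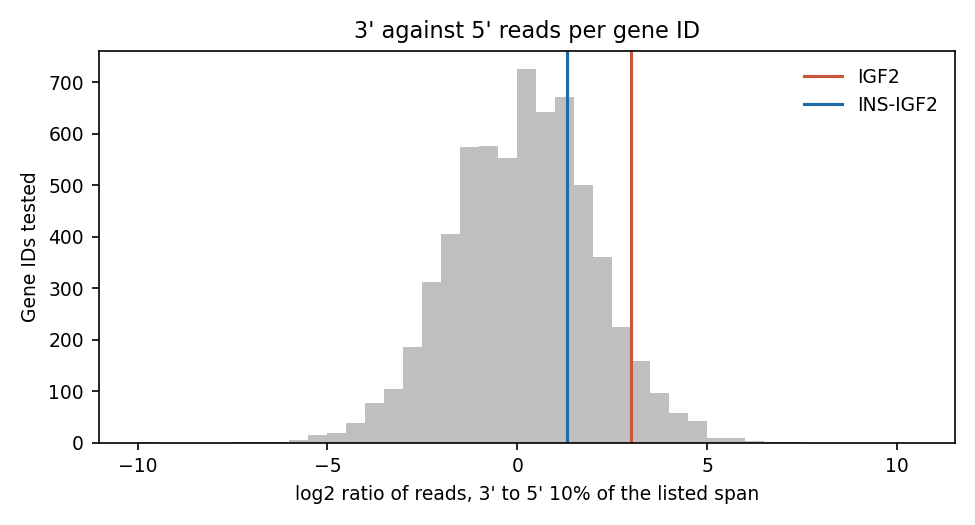
Histogram of the log2 ratio of reads in the 3' against the 5' 10% of the listed span (horizontal axis) over 6382 tested gene IDs (vertical axis, number of IDs); coloured lines mark IGF2 at 2.99 and INS-IGF2 at 1.32, and the median over all IDs is 0.18.

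Little else was listed around the locus. Between 2.0 and 2.2 Mb of chromosome 11 the other gene IDs with peaks were ENSG00000240801, described above, and ENSG00000099869 on the plus strand. The latter had 1 peak of 3 reads in replicate 1, 0 peaks in replicate 2 and 1 peak of 5 reads in replicate 3, at chr11:2164741-2164742 and chr11:2162472-2162545. These lie upstream of the last IGF2 and INS-IGF2 peaks, so no plus-strand peak faced the dense part.

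The gene IDs most like IGF2 in their shares were found by the smallest Euclidean distance of log2 shares over the 3 replicates, which is a likeness over 3 libraries and no more. They were ENSG00000148120 (distance 0.39), ENSG00000218336 (0.70), ENSG00000186487 (0.78), ENSG00000170017 (0.95) and ENSG00000122254 (1.04). The nearest, on chromosome 9, had 0.186%, 0.615% and 0.153% of the reads in 144, 72 and 94 peaks. These reads were spread over a listed span of 359 kb, against 9.51 kb for IGF2. The other 4, whose shares lay further from those of IGF2, had spans of 101 to 656 kb. All 5 had median peak widths of 65 to 85 nt in each replicate, and 27.7 to 63.9% of their clusters overlapped another replicate.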

How the data were processed

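Peak lists of CSTF2tau sCLIP were analysed for 3 replicates of 1 group. Per the submitters' processing notes the build was hg19, and FastQC, SAMtools, STAR and bedtools are named without roles; peak caller and annotation are not given in the sources used here. Peaks carry a p-value from the authors, as deposited, with no adjustment stated. The last number of the deposited peak name was read as reads (Spearman's rho with the p-value -0.988, -0.973 and -0.964); no source states this. Gene ID versions, which are written differently between lists, were dropped. Positions are printed 1-based.

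Peaks overlapping on a strand by at least 1 nt were merged, within a list into clusters and over lists into loci, with reads taken from the member ID with the most. Shares are of all listed reads. The comparison of 3' and 5' ends was fitted for gene IDs with at least 5 loci and 10 reads in both ends together, by exact two-sided binomial tests with Benjamini-Hochberg adjustment. A call needed an adjusted p below 0.05 and 1 direction in all replicates that had reads in either end; log2 ratios carry 0.5 added reads. The test was run on simulated data drawn with independent reads, which does not cover listed reads that are not independent. Python 3.11.15 and SciPy 1.17.1 were used.

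The members and lists were chosen with earlier results of these data known. Named were the member IDs, loci in all 3 replicates, the 10 loci of highest mean share, neighbours and the 5 IDs of most similar shares. A planned list of IGF pathway and imprinted genes was not analysed here, since no gene ID could be matched to a symbol. No sequence is printed, because no hg19 sequence was used here.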

Additional observations from a re-analysis of the deposited data

How the results depend on the processing

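The share of the IGF2 locus stayed within 1 SD of its mean of 0.400% under every alternative run, a wide limit here: the lowest value was 0.221% without replicate 2 and the highest 0.511% with the lower-p part of each list, up to its median p. Leaving out a replicate each, it ran from 0.221 to 0.509%, loci in all remaining replicates from 25 to 47, clusters overlapping another replicate from 54.4 to 74.0%, the IGF2 log2 ratio from 2.17 to 3.76, and gene IDs called at the 3' end from 617 to 1171 and at the 5' end from 540 to 1051; fewer lists are then compared. With only peaks of at least 20 nt, 8 loci were in all 3 replicates, 71.1% of clusters overlapped, and the IGF2 ratio of 2.22 was no longer called. Leaving out peaks that stand under several gene IDs, which also moves the windows, it was 0.034. The ratio was 4.27 with the outer 20% and 2.17 with the outermost locus. Gene IDs called for the 3' and for the 5' end numbered 734 and 590 with the lower-p part of each list, 145 and 59 with the outermost locus, and 218 and 225 with peaks in place of reads, and 579 at the 5' end with peaks of at least 5 reads. Of 50 alternative mean shares of the 10 strongest loci, 48 stayed within 1 SD, which is near the mean itself at several of them: without replicate 2, chr11:2151224-2151421 went from 0.0328 to 0.00914%, chr11:2150401-2150504 from 0.0152 to 0.00438%, chr11:2153978-2154371 from 0.0270 to 0.00955% and chr11:2150594-2150738 from 0.0217 to 0.00810%, so their order is not stable. No paired analysis was possible because there is 1 group. The sequencing depth of the lists is unknown, and a peak under 3 reads is not listed.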
